A study of Mus musculus with 45 samples.

Results

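Mitochondrial ribosomal proteins were followed in mouse heart RNA through the 76 genes whose symbol is Mrps or Mrpl with a number and, in some, a letter, among the 23284 symbols listed for each library. Of these, 29 carry an Mrps symbol, given for the small subunit, and 47 an Mrpl symbol, given for the large subunit. The products of 3 Mrps genes, Mrps18a, Mrps30 and Mrps36, are known from elsewhere. The series holds 45 samples of mouse heart made to set binding of the cardiac transcription factor Gata4, and histone modifications, beside gene expression in development and disease, and 6 of them are RNA-seq libraries. Adult heart has 2 libraries, and E12.5 embryonic heart, E12.5 heart labelled Gata4 KO, heart labelled banding (an operation that narrows a vessel and loads the heart) and heart labelled sham (the operation without the band) have 1 each. The 39 other samples are chromatin libraries and were not analysed here. The protocols name the alleles Gata4fbio, Rosa26BirA, cTNTcre (Cre recombinase under a cardiac troponin T promoter, active in cardiomyocytes) and Gata4flox for the series as a whole, and the alleles of each RNA library are not given there. Strain and sex are likewise not given, nor an age for banding and sham. The RNA was pooled, and no label states that the adult pair comes from separate animals, so its spread, and each p-value built on it, may be technical.

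The mitochondrial ribosome, or mitoribosome, translates the few respiratory chain and ATP synthase subunits that mitochondrial DNA still encodes. All of its proteins are encoded in the nucleus, made in the cytosol and imported, and they assemble on RNAs transcribed inside the mitochondrion. Some descend from bacterial ribosomal proteins and many others were added in the mitochondrial lineage. Heart muscle relies on oxidative phosphorylation, and birth brings a switch of cardiac metabolism from glucose towards fatty acids.

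Promoters of nuclear genes for mitochondrial proteins are known for binding sites of NRF1, of ETS factors such as Gabpa, and of Yy1. In RefSeq promoter windows of GRCm38.p6, from 250 bases before to 50 bases after the annotated start, 67 of the 76 genes had an entry, and 3 of them had several starts. The windows were searched on both strands for CGCATGCG (NRF1, the same on both strands), CCGGAAG (ETS), AAGATGGCG (YY1), CACGTG (E-box, the same on both strands, bound by Myc and relatives) and AAGGTCA (ERR, for Esrra and Esrrg). In 1 place matches of 2 different motifs shared bases. The ETS letters stood in 24 of the 67 genes, or 35.8%, against 9.93% of all 27025 genes with a window and 19.7% of the 8890 of these that were tested between adult and E12.5. The YY1 letters stood in 8 genes, or 11.9%, against 1.64% and 3.53%. The NRF1 letters stood in 7 genes, or 10.4%, against 2.07% and 4.42%. At least 1 of these 3 motifs was found in 34 genes, or 50.7%, against 12.8% and 25.6%. E-box letters stood in 5 genes, or 7.46%, against 8.09% and 12.1%, and ERR letters in 4, or 5.97%, against 5.38% and 3.85%. A match of letters is a description and not a measured binding site. The 6 stretches below are the last 150 bases before the start, 5′ to 3′ on the gene's strand, for genes whose levels are described further on, with NRF1, ETS and YY1 letters in capitals. Only genes with a match are shown. Mrpl23, Mrps25 and Mrpl1, also described further on, had no match of these 3 motifs in the window. Mrpl51 and Mrps22 were higher in adult than in E12.5, and Mrpl36, Mrpl52, Mrpl10 and Mrps18a were lower.
Mrpl51 (chr6:125192050-125192199, plus strand): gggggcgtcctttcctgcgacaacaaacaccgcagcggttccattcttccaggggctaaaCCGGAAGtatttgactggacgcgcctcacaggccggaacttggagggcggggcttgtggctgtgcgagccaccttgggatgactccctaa
Mrps22 (chr9:98601680-98601829, minus strand): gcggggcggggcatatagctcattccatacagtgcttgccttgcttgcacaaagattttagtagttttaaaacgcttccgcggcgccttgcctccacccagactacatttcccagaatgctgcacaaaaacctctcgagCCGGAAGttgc
Mrpl36 (chr13:73330859-73331008, plus strand): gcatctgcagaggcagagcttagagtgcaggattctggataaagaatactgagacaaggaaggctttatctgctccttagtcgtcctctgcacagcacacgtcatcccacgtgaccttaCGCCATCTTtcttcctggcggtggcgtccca
Mrpl52 (chr14:54426759-54426908, plus strand): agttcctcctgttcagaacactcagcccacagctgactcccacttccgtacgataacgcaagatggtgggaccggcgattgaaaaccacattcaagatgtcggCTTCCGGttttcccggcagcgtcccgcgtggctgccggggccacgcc
Mrpl10 (chr11:97041432-97041581, plus strand): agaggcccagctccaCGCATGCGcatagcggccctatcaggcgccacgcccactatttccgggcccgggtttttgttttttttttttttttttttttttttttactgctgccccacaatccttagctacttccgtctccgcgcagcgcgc
Mrps18a (chr17:46110854-46111003, plus strand): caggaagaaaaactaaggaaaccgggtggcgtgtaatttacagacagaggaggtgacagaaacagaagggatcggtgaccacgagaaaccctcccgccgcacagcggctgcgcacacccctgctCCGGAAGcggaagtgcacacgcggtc
The ETS letters begin 90 bases before the start in Mrpl51, 11 in Mrps22, 26 in Mrps18a and, on the other strand, 47 in Mrpl52. The YY1 letters of Mrpl36 lie on the other strand from 31 bases before the start, and the NRF1 letters of Mrpl10 begin at 135. Each of these 3 motifs was found both among genes that rose and among genes that fell in adult. ETS letters were in 7 of the 20 risers and 13 of the 31 fallers with a window, YY1 letters in 1 and 5, and NRF1 letters in 1 and 4. E-box letters were in 0 risers and 3 fallers, as were ERR letters.

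Each library held between 12086929 and 21056784 mapped reads, recovered from the steps of the deposited values. Levels are log2(FPKM + 1), where FPKM is fragments per kilobase of transcript, scaled to all mapped reads, so they can be compared between genes. All 8 cardiomyocyte markers were above 0 in every library. Gata4 stood at 5.93 in E12.5 and, with the knockout label, at 6.13, against 3.78 and 3.28 in adult heart, 2.29 in sham and 2.38 in banding. It was therefore not lower in the library with the knockout label, and a value for the whole gene does not show which exons were read. Listed genes took 81.7% and 82.2% of the adult libraries' mapped reads, 75.6% of those from E12.5 and 76.6% of those with the knockout label, but 56.5% and 53.9% of those from banding and sham.

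All 76 genes were above 0 in all 6 libraries, and all passed the filter of at least 1 FPKM in 1 library in every comparison. Their median level was highest in the embryonic hearts, at 5.15 in E12.5 and 5.03 with the knockout label, then 4.58 and 4.63 in adult, and lowest in banding (3.80) and sham (3.67). The median of all genes from 1 FPKM ran in the same order, at 3.27 and 3.24, 2.92 in both adult libraries, 2.42 in banding and 2.41 in sham. Together they made up 0.998% of all FPKM in E12.5, 0.826% under the knockout label, 0.934% and 0.930% in adult, 0.640% in banding and 0.609% in sham. Nuclear-encoded respiratory chain and ATP synthase subunits, in contrast, made up 10.6%, 8.01%, 11.4% and 11.7%, 9.32% and 9.96% in the same order. Although the products meet in 1 particle, the levels within a library spread widely, with a standard deviation over the 76 genes of 1.23 to 1.31 in log2 units. The number of reads behind a gene was never below 18, in sham, and the fewest in E12.5 was 122.

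The highest mean level over the 6 libraries belonged to Mrpl42, a protein of the large subunit that bacteria lack, followed by Mrps21, Mrpl12 (the stalk protein that contacts translation factors) and Mrpl18 (a protein of the central protuberance). The lowest belonged to Mrpl17, Mrpl19, Mrpl1 (the protein of the L1 stalk) and Mrpl11 (at the base of the other stalk). Mrpl12 stood at 8.34 in E12.5 and 7.93 under the knockout label, 6.55 and 6.65 in adult, 6.46 in banding and 6.12 in sham. Mrps21 stood at 8.04, 7.83, 6.60 and 6.33, 6.83 and 6.60 in the same order. Both were highest in the embryonic libraries. On the deposited scale Mrpl12 was lower in sham than in adult (difference -0.48, SE 0.09), and Mrps21 differed by 0.13 (SE 0.15). This contrast depended on the scale. After upper-quartile scaling of the libraries the differences were 0.22 for Mrpl12 and 0.84 for Mrps21. After rescaling each library to the same sum they were 0.22 and 0.83. Mrpl17 stood at 2.52, 2.87, 2.40 and 2.28, 1.70 and 1.65, and Mrpl19 at 3.03, 2.94, 1.99 and 1.86, 1.85 and 1.78. The leading gene changed between libraries. It was Mrpl42 in both adult libraries, Mrpl52 in both E12.5 libraries and Mrpl18 in banding and sham.

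The comparison of adult with E12.5 asked which of these genes differ between the mature and the embryonic heart. They did not move as a block: 20 rose in adult and 38 fell by limma with Benjamini-Hochberg adjustment over 12658 genes, and 18 did not pass. The share that rose was 26.3%, against 23.4% of all genes tested, and the share that fell was 50%, against 48.4%. The median difference was -0.61 on the log2 scale, against -0.51 for all genes tested, so counts and median both lay near the background. Without the filter on low values the median of all genes was -0.16, and that of the 76 genes did not change. Differences ran from -3.89 for Mrpl36 to 2.74 for Mrpl42. In bulk tissue, fewer cells of a type and less RNA per cell cannot be told apart. The lone E12.5 library is assumed to vary like the adult pair.

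**Figure D1:**
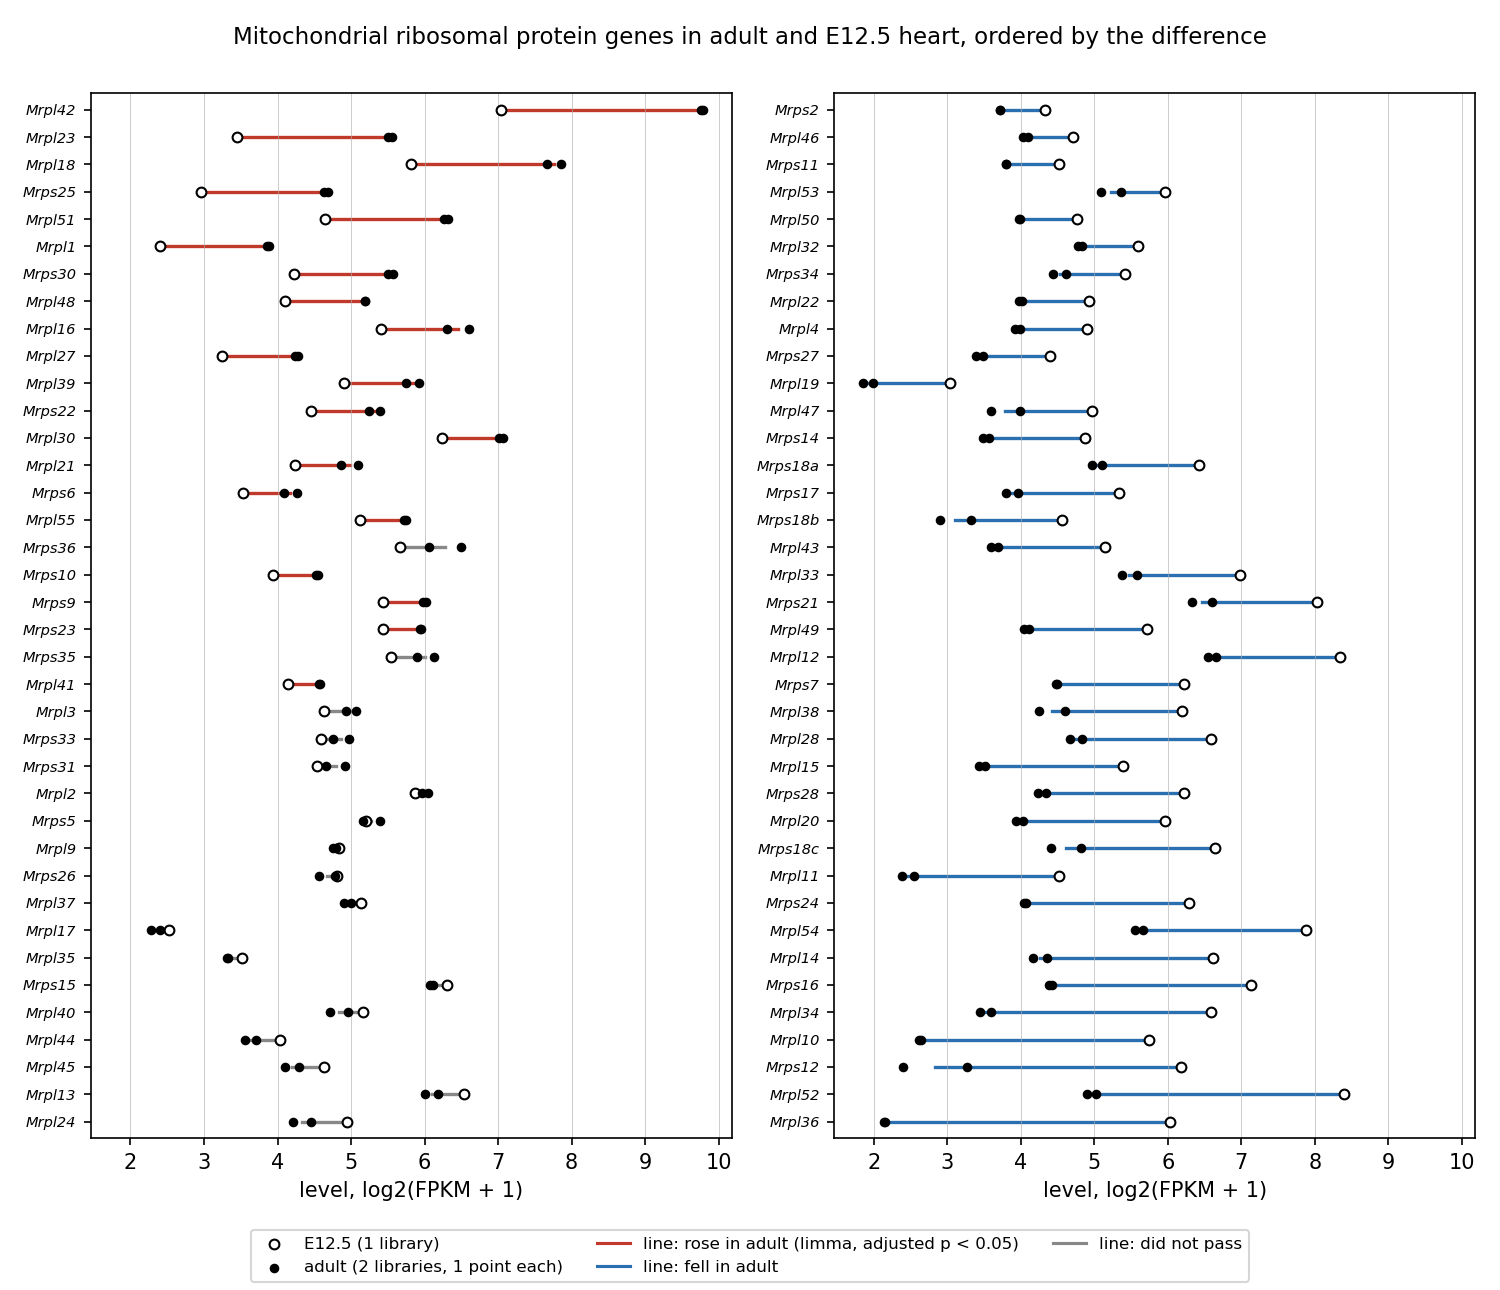
Level of each of the 76 genes, log2(FPKM + 1) on the horizontal axis, in the E12.5 library (open circle) and in the 2 adult libraries (filled), ordered by the difference from the top left to the bottom right. Red lines mark the 20 genes that rose, blue lines the 38 that fell and grey lines the 18 that did not pass, and the largest differences run from 2.74 (Mrpl42) to -3.89 (Mrpl36).

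Among the genes that rose, Mrpl42 stood at 9.78 and 9.76 in adult and 7.03 in E12.5, a difference of 2.74 (SE 0.07, limma adjusted p = 0.00398). At 6.45 to 6.58 in sham and banding it was below both. Mrpl23, a protein beside the exit tunnel, stood at 5.50 and 5.56 in adult and 3.45 in E12.5 (difference 2.08, SE 0.08, limma adjusted p = 0.00401). Mrpl18 stood at 7.67 and 7.85 against 5.81, a difference of 1.95 (SE 0.11). For each of these the adult libraries lay close together and well above E12.5. Mrps25, which has no bacterial counterpart, stood at 4.63 and 4.69 against 2.97, Mrpl51 at 6.26 and 6.32 against 4.64, and Mrpl1 at 3.85 and 3.88 against 2.40. Their differences were 1.69 (SE 0.08), 1.65 (SE 0.07) and 1.47 (SE 0.10). The largest adjusted p among these 6 genes was 0.00632. The annotated Mrpl18 overlaps Tcp1 and Mrps25 overlaps Nr2c2. Of the other members named in this report, Mrps18a overlaps Rsph9 and Mrpl19 overlaps Gcfc2. Reads of overlapping genes could not be separated by strand with this kind of library.

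Among the genes that fell, Mrpl36, a small zinc-binding protein of the large subunit, stood at 2.15 and 2.14 in adult and 6.03 in E12.5, a difference of -3.89 (SE 0.09, limma adjusted p = 0.00398). Mrpl52 stood at 4.90 and 5.03 against 8.40, a difference of -3.44 (SE 0.09). Mrpl10, which anchors the stalk that carries Mrpl12, stood at 2.62 and 2.64 against 5.74, a difference of -3.11 (SE 0.09). These 3 genes of the large subunit were thus several-fold lower in both adult libraries. Mrpl34 stood at 3.59 and 3.45 against 6.59 (difference -3.07, SE 0.11) and Mrps16 at 4.38 and 4.42 against 7.13 (difference -2.72, SE 0.07). Mrps12, the protein at the decoding centre, stood at 2.40 and 3.27 against 6.18, and its difference of -3.34 had a wider error (SE 0.48, limma adjusted p = 0.0188), with the adult libraries further apart than for the other genes named. Without the filter on low values Mrps12 did not pass (adjusted p = 0.0622).

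The stalk gives an example of neighbours in the particle. Mrpl10 and Mrpl12 both fell, Mrpl12 by 1.74 (SE 0.08, limma adjusted p = 0.00469), and Mrpl11 at its base fell by 2.05 (SE 0.14), whereas Mrpl1 on the opposite stalk rose. The 3 genes for relatives of bacterial protein S18 all fell. Mrps18a, whose product is known from the large subunit despite its symbol, stood at 5.10 and 4.97 against 6.42, a difference of -1.39 (SE 0.10, limma adjusted p = 0.00663). Mrps18b stood at 3.32 and 2.90 against 4.57 (difference -1.46, SE 0.24), and Mrps18c at 4.42 and 4.82 against 6.64 (difference -2.02, SE 0.23). Mrps18b did not pass after upper-quartile scaling (-1.0, adjusted p = 0.0658), after median-of-ratios scaling (-1.01, adjusted p = 0.0616) or without the filter (adjusted p = 0.0713). Mrps30, another protein known from the large subunit, rose, with 5.57 and 5.50 against 4.22 (difference 1.31, SE 0.08, limma adjusted p = 0.00576). Mrps36, known as a component of the 2-oxoglutarate dehydrogenase complex rather than of the ribosome, stood at 6.50 and 6.06 against 5.67 and did not pass (difference 0.61, SE 0.25, limma adjusted p = 0.126).

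Split by symbol, 7 of the 29 Mrps genes rose and 15 fell, and 13 of the 47 Mrpl genes rose and 23 fell, with medians of -0.61 and -0.60. The genes were also split by whether the protein has a bacterial counterpart. The 3 Mrps genes with products known from elsewhere were left out of this split. Of the other Mrps genes, 17 have a counterpart, and of these 3 rose and 12 fell, with a median of -1.45. Of the 9 without one, 3 rose and 2 fell, with a median of 0.28. Among Mrpl genes the medians lay closer, with 8 of 30 rising and 15 falling (median -0.69) where there is a counterpart, and 5 of 17 rising and 8 falling (median -0.43) where there is none. Over all genes tested 23.4% rose and 48.4% fell, with a median of -0.51. The split took no account of transcript length, which is described below, and these differences between classes were not tested.

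The direction of single genes depended little on the scale, and the split into rising and falling genes depended on it more. After upper-quartile scaling, 29 genes rose and 30 fell, with a median of -0.13, and the median of all genes tested moved from -0.51 to -0.11. All 20 of the genes that rose and 30 of the 38 that fell passed in the same direction under each of 3 rescalings.

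Transcript length, as the files divide by it, ran from 407 bases for Mrps21 to 6712 for Mrpl17. Shorter transcripts were lower in adult across the transcriptome, and 69 of these genes were under 2500 bases. Among the genes under 600 bases the median difference was -2.02 over 9 of these genes and -1.34 over 473 others. Between 600 and 1000 bases it was -0.60 over 25 of these genes and -1.15 over 750 others, and between 1000 and 1500 bases -0.33 over 21 and -0.93 over 1292. Above 2500 bases it was -0.20 over 7 and -0.30 over 7057. Spearman's rho between length and difference was 0.24 over the 76 genes and 0.20 over 12656 genes, as a description across genes, which are not independent. When each gene was set against the median of its own length band, a step added after seeing the data, the median of the 76 genes was 0.26, against -0.09 when set against all genes. The sign of the set's distance from the background therefore depended on whether length was taken into account. The part of length in these differences was not tested.

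**Figure D2:**
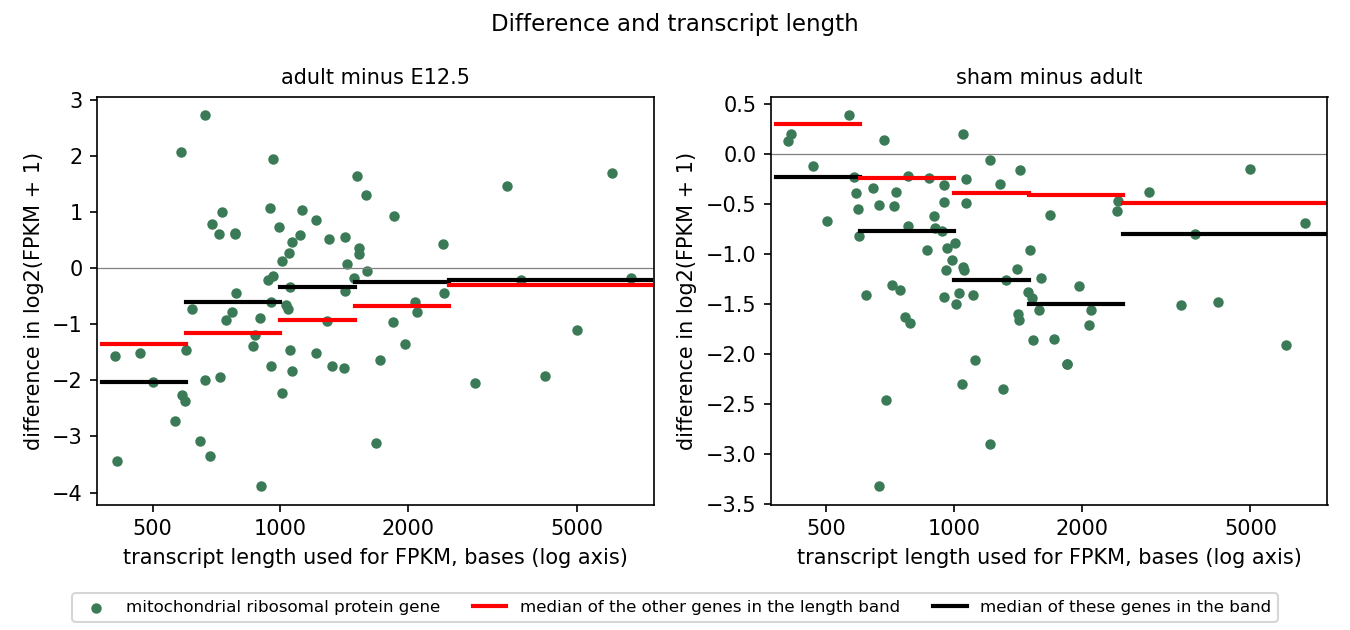
Difference in log2(FPKM + 1) (vertical) against the transcript length used for FPKM (horizontal, log axis) for the 76 genes, in adult minus E12.5 (left) and sham minus adult (right), with the median of these genes (black) and of the other genes (red) in 5 length bands. Under 600 bases the medians in adult minus E12.5 were -2.02 and -1.34, and between 1500 and 2500 bases the medians in sham minus adult were -1.5 and -0.41.

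Genes that work with the mitoribosome were described from lists of the same pathway. Of 7 ribosomal proteins with other symbols, 1 rose, Aurkaip1 (6.34 and 6.42 in adult against 4.94 in E12.5, difference 1.44, SE 0.08), and 4 fell, among them Mrp63 (1.86 and 1.95 against 4.09) and Chchd1 (4.02 and 4.14 against 5.70). Of 14 genes listed as translation factors, Slirp among them, 10 rose and 1 fell. Their median was 1.23, against -0.51 for all genes tested, of which 23.4% rose. Gfm1, an elongation factor, stood at 7.45 and 7.23 in adult and 4.87 in E12.5, a difference of 2.47 (SE 0.13, limma adjusted p = 0.00531). Mrrf, which recycles ribosomes after termination, stood at 5.29 and 5.21 against 2.81 (difference 2.43, SE 0.08), and the initiation factor Mtif2 at 5.22 and 5.29 against 3.75 (difference 1.5, SE 0.08).

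Of 20 genes listed as mitochondrial aminoacyl-tRNA enzymes, most of which charge transfer RNAs, 2 rose and 10 fell. Their median was -0.36, against -0.51 for all genes tested, of which 23.4% rose and 48.4% fell. Lars2, which charges leucine, stood at 5.45 and 5.19 in adult and 2.72 in E12.5, but at 9.95 in banding and 9.97 in sham. Rn45s, the precursor of ribosomal RNA, stood at 12.96 and 12.94 there, against 8.65 and 8.94 in adult and 7.56 in E12.5. The part of ribosomal reads in the levels of Lars2 was not tested. Ears2, which charges glutamate, stood at 1.77 and 1.84 in adult against 4.01, and Pars2, which charges proline, at 0.76 and 1.04 against 2.34. Of 28 genes for assembly of the particle and modification of its RNA, 6 rose and 10 fell. Mpv17l2 fell (1.0 and 1.13 against 3.89), and Mterfd1 (4.4 and 4.35 against 2.49) and the protease subunit Spg7 (5.70 and 5.82 against 4.08) rose. Of 8 tested genes for copying and transcribing mitochondrial DNA, 2 rose and 3 fell: the transcription factor Tfb2m by 2.83 and the single-strand binding protein Ssbp1 by 1.88 upward, and the polymerase subunit Polg2 by -1.48 among those downward. The 3 genes for insertion of the products into the inner membrane, Oxa1l, Cox18 and Tmem126a, all fell, with differences of -0.59, -2.35 and -1.81.

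Among 11 factors known to act on promoters of mitochondrial genes, 2 rose and 5 fell. Their median was -0.47, against -0.51 for all genes tested, of which 23.4% rose and 48.4% fell, so the list lay near the background. The coactivators Ppargc1a (5.39 and 5.31 in adult against 3.93 in E12.5) and Ppargc1b (3.61 and 3.40 against 2.73) rose by 1.42 (SE 0.08) and 0.78 (SE 0.15). Their relative Pprc1 fell (1.77 and 1.42 against 3.27), as did Gabpb1, the partner of Gabpa that does not itself bind DNA (2.15 and 1.99 against 3.55), Yy1 (3.74 and 3.80 against 4.69), Myc (0.58 and 0.65 against 3.51) and Mycn (1.15 and 1.02 against 4.71). Nrf1 (2.30 and 2.50 against 2.74), Gabpa (4.0 and 3.87 against 4.23), Esrra (4.27 and 4.14 against 3.91) and Esrrg (3.54 and 3.39 against 3.93) did not pass. Of the factors that bind the letters searched for in the promoters, Yy1, Myc and Mycn thus fell, and Nrf1, Gabpa, Esrra and Esrrg did not pass.

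Of 79 tested genes for cytosolic ribosomal proteins, 45 rose and 26 fell, with a median of 1.03, led by Rpl3l, the muscle form of Rpl3 (7.67 and 7.81 against 0.39), then Rpl17 (8.90 and 9.06 against 3.03) and Rpl21 (7.79 and 7.72 against 1.88). Many cytosolic ribosomal protein genes have near-identical processed copies, so these values are uncertain. Of 78 tested respiratory chain and ATP synthase genes, 30 rose and 40 fell, with a median of -0.54, against 23.4% rising and 48.4% falling among all genes tested. Cox6a1 (3.31 and 3.32 against 10.77) and Cox8a (4.83 and 4.66 against 9.92), the forms made in most tissues and replaced by muscle forms in adult heart, fell, and Uqcrb rose (11.46 and 11.87 against 5.37).

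**Figure D3:**
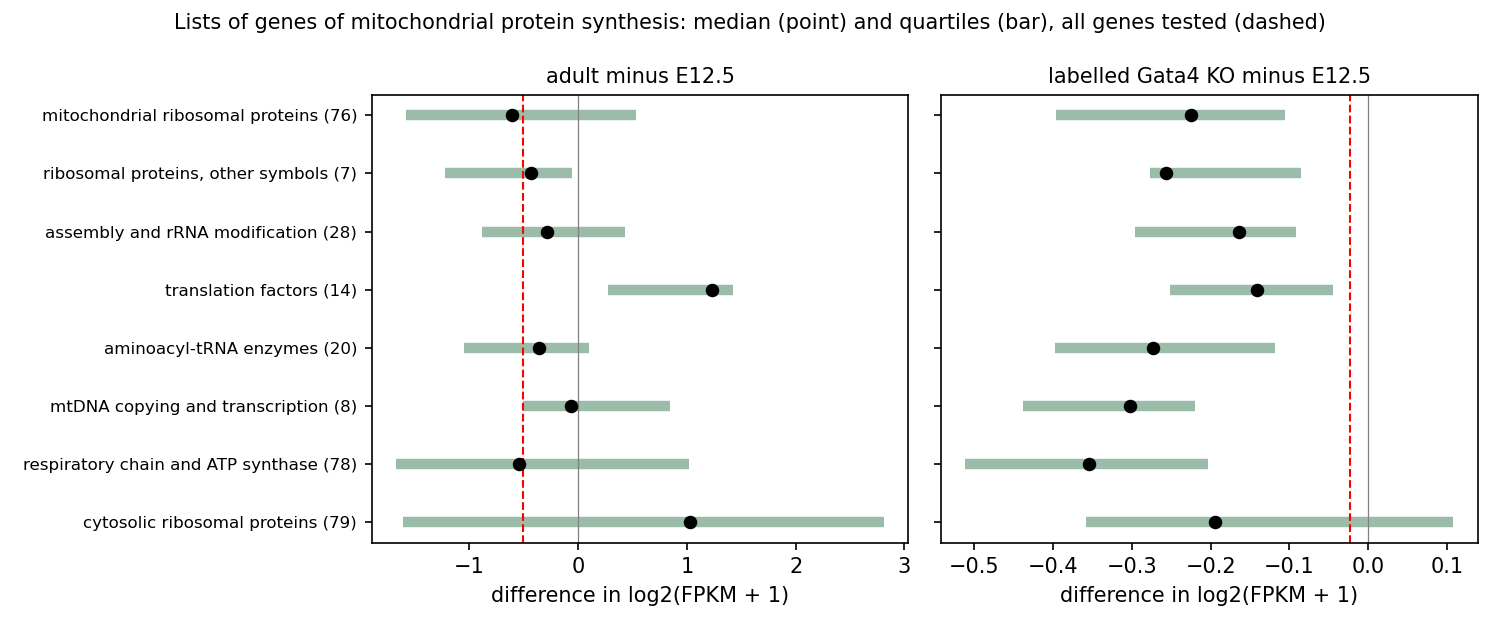
Median difference in log2(FPKM + 1) (point) and quartiles (bar) of the 76 genes and 7 related lists, in adult minus E12.5 (left) and in the library labelled Gata4 KO minus E12.5 (right), with the median of all genes tested as a dashed line and the number of genes tested between adult and E12.5 in parentheses. Translation factors (median 1.23) and cytosolic ribosomal proteins (1.03) lie to the right of the other lists in adult minus E12.5, and all 8 medians lie left of the dashed line in the right panel.

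Summed levels of several cell markers differed as well. Cell cycle markers summed to 485 FPKM in E12.5 and to 8.35 and 10.7 in adult, with all 10 falling, and red cell markers to 21307 FPKM in E12.5 and to 0.521 and 1.4 in adult, where Hbb-y, Hba-x, Hbb-bh1 and Slc4a1 were at 0 in both. Cardiomyocyte markers summed to 15627 FPKM in E12.5 and to 33086 and 33169 in adult, with 4 of 8 rising and 2 falling. Fibroblast markers summed to 156 in E12.5 and to 119 and 149 in adult, with 2 of 8 rising and 4 falling, and endothelial markers to 266 and to 280 and 277, with 3 of 7 rising and 3 falling. Among all genes tested 23.4% rose and 48.4% fell, so the counts of fibroblast markers lay near the background. Sums of a list follow its most abundant genes. Leukocyte markers summed to 35.7 and to 34.4 and 52.3, and liver markers to 2.13 and to 0.169 and 0.0663. The part of these cells in the differences of the 76 genes was not tested.

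Sham heart was compared with unoperated adult heart, with which it shares no label beyond the organ. In sham 57 of the 76 genes, or 75%, fell by limma with Benjamini-Hochberg adjustment over 11582 genes, against 44.8% of all genes tested, and 1 gene rose, against 13.7% of all. The median difference was -0.96, against -0.44 for all genes tested. Most genes of both kinds of symbol fell, with 22 of 29 Mrps genes and 35 of 47 Mrpl genes falling. Leaving out Mrps18a, Mrps30 and Mrps36, Mrps genes without a bacterial counterpart fell in 8 of 9 cases, with a median of -1.86, and those with a counterpart in 11 of 17, with a median of -0.77. This comparison and that of adult with E12.5 share the adult libraries.

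The largest fall was that of Mrpl42, from 9.78 and 9.76 in adult to 6.45 in sham, a difference of -3.32 (SE 0.08, limma adjusted p = 0.00269). Mrps22, a small-subunit protein with no bacterial counterpart, stood at 5.24 and 5.40 in adult and 2.42 in sham (difference -2.90, SE 0.12). Mrpl30 stood at 7.07 and 7.01 against 4.58 (difference -2.46, SE 0.09). In all 3 the sham library lay far below both adult libraries. Mrpl52 was 0.20 higher in sham as deposited. After upper-quartile, median-of-ratios and equal-sum scaling it was 0.89, 0.64 and 0.90 higher. On the deposited scale Mrps16 was the only gene that rose by the test, from 4.38 and 4.42 to 4.79 (difference 0.39, SE 0.10). It did not pass without the filter, without the trend of the variance or by voom on recovered reads, where the adjusted p was 0.0553, 0.0608 and 0.0940.

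The count depended on the scale. FPKM divides by all mapped reads, of which fewer lay on listed genes in sham than in adult, 53.9% against 81.7% and 82.2%. Rn45s, the precursor of ribosomal RNA, was at 12.94 in sham against 8.65 and 8.94 in adult. After upper-quartile scaling 33 genes fell and 8 rose, after median-of-ratios scaling 41 and 2, and after rescaling each library to the same sum 32 and 8. The median was then -0.27, -0.53 and -0.30, while that of all genes tested was 0.10, -0.10 and 0.11. Set against all genes, the 76 genes were lower by 0.52 as deposited and by 0.38 to 0.43 after rescaling, and the 32 genes that fell in all 3 rescalings include Mrpl42, Mrps22 and Mrpl30. Within length bands the distance was -0.75, and the largest gap was between 1500 and 2500 bases, with a median of -1.5 over 14 of these genes and -0.41 over 2749 others. The part of the ribosomal reads in the difference was not tested.

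Of the pathway lists, 12 of 14 translation factors fell in sham against adult and none rose, with a median of -0.95. Ribosomal proteins with other symbols fell in 5 of 7 cases (median -0.60), assembly genes in 13 of 28 with 1 rising (median -0.51), and genes for mitochondrial DNA in 5 of 7 (median -0.84). Respiratory chain genes fell in 44 of 78 cases and rose in 12 (median -0.56), and cytosolic ribosomal protein genes fell in 31 of 76 and rose in 18 (median -0.17). Over all genes tested 44.8% fell and 13.7% rose, with a median of -0.44, and the median of assembly genes lay near it. These counts and medians are on the deposited scale, on which more of the 76 genes fell than after rescaling. Fibroblast markers summed to 283 FPKM in sham against 119 and 149 in adult, with a median difference of 0.48 and 3 of 8 below 0. Cardiomyocyte markers summed to 22280 against 33086 and 33169, with a median difference of -0.71 and 7 of 8 below 0. The part of these cells in the differences was not tested.

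Banding was compared with sham, 1 library each, with no test made, and none of these values has a replicate check. A rule of size asked for a ratio of FPKM of 2 or more and a higher value of 5 FPKM or more. No gene of the 76 passed it in either direction, against 1.48% of all 11011 genes higher in banding and 0.754% lower. Small differences leaned one way: 59 of 76 genes, or 77.6%, were higher in banding by any amount, against 54.4% of all genes. The median difference was 0.17, against 0.03 for all genes. Transcripts under 1500 bases lay higher in banding than longer ones across the transcriptome. Set against the genes of the same length band, the median of the 76 genes was 0.056, against 0.14 when set against all genes. The exact 95% interval of the FPKM ratio, which covers counting error only, lay above 1 in 24 genes, or 31.6%, against 22.7% of all genes, and below 1 in 2 genes, or 2.63%, against 16.2%.

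Mrps34, a small-subunit protein with no bacterial counterpart, stood at 4.66 in banding against 3.91, a ratio of FPKM of 1.74 (interval 1.42 to 2.12). Mrpl13 stood at 4.99 and 4.41, a ratio of 1.52 (interval 1.27 to 1.83), and Mrpl52 at 5.75 and 5.17, a ratio of 1.51 (interval 1.25 to 1.83). These were the largest differences upward on the log2 scale among genes with at least 5 FPKM in the higher library. Mrpl36, at 2.14 against 1.41, had a ratio of 2.06 (interval 1.16 to 3.79) at under 5 FPKM, from 43 and 18 reads. Mrps35 stood lower in banding, 5.40 against 5.77, a ratio of 0.771 (interval 0.690 to 0.861), as did Mrpl3, near the catalytic centre, 3.29 against 3.56, a ratio of 0.815 (interval 0.664 to 0.9995). Mrps26 stood at 3.52 and 3.74, and its interval of 0.665 to 1.07 included 1. The lean towards banding depended on the scale. After rescaling each library to the same sum, 40 of the 76 genes were higher and the median was 0.04, with that of all genes at -0.10.

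Cytosolic ribosomal protein genes were higher in banding in 71 of 76 cases, with a median of 0.27, and respiratory chain genes in 49 of 77, with a median of 0.04. Translation factors were higher in 5 of 14, with a median of -0.04. Of all genes 54.4% were higher in banding, with a median of 0.03, and the median of respiratory chain genes lay near it. The lengths of the genes in these lists were not taken into account. Fibroblast markers summed to 748 FPKM in banding against 283 in sham, and cardiomyocyte markers to 20021 against 22280. In banding 6 of 8 fibroblast markers were higher by the rule of size, against 1.48% of all genes. The part of these cells in the differences was not tested.

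E12.5 heart with and without the Gata4 KO label was compared, again 1 library each. Most of the 76 genes were slightly lower in the library labelled Gata4 KO: 67 of 76, or 88.2%, were lower by any amount, against 53.6% of all 12062 genes, with a median of -0.23, against -0.02 for all genes. The counting interval of the ratio lay below 1 in 53 genes, or 69.7%, against 28.0% of all genes, and above 1 in 3 genes, or 3.95%, against 24.0%. By the rule of size 1 gene was lower, against 0.688% of all genes, and none was higher, against 1.26%. Of 29 Mrps genes 27 were lower, and of 47 Mrpl genes 40. Across 3 rescalings between 65 and 69 of the 76 genes were lower, with medians of -0.20 to -0.25. Within length bands the distance from the median of all genes was -0.13, against -0.20 without regard to length. Under 600 bases the median was -0.18 over 9 of these genes and -0.25 over 458 others.

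The gene past the rule of size was Mrps24, a small-subunit protein near the entry of the messenger RNA, with 5.23 in the library labelled Gata4 KO and 6.28 in E12.5, from 656 and 1628 reads, a ratio of FPKM of 0.476 (interval 0.435 to 0.522). Next were Mrps35, at 5.0 against 5.54 (ratio 0.678, interval 0.612 to 0.752), and Mrps18a, at 5.90 against 6.42 (ratio 0.691, interval 0.635 to 0.75). Both lay nearer to the E12.5 level than Mrps24 did. The 3 genes with an interval above 1 were Mrpl17, at 2.87 against 2.52 (ratio 1.33, interval 1.20 to 1.48), Mrpl20, at 6.18 against 5.96 (ratio 1.16, interval 1.06 to 1.28), and Mrps11, at 4.71 against 4.52 (ratio 1.14, interval 1.0045 to 1.30). All 3 products have bacterial counterparts, as do most products of the set. Among Mrpl genes 30 have a counterpart and 17 have none. Among Mrps genes, without those whose products are known from elsewhere, 17 have a counterpart and 9 have none. Whether a counterpart goes with a higher level in this library was not tested.

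**Figure D4:**
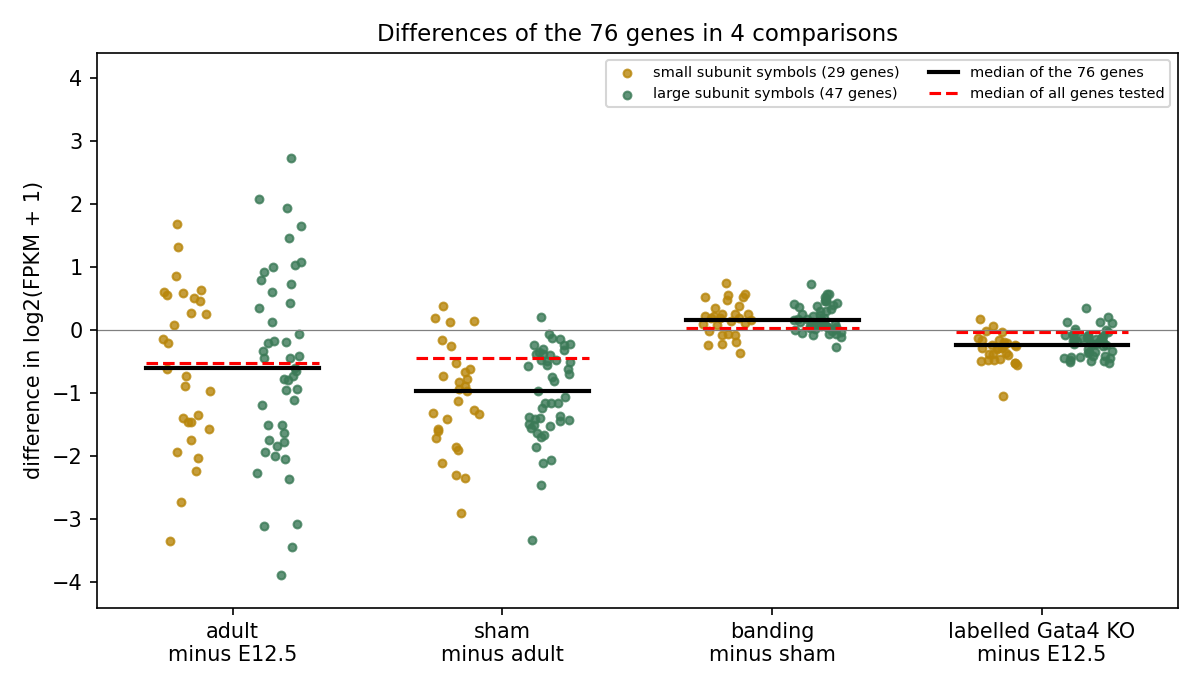
Difference in log2(FPKM + 1) of each of the 76 genes in 4 comparisons, Mrps genes in ochre and Mrpl genes in green, with the median of the 76 genes (black) and of all genes tested (red dashes). Adult minus E12.5 spreads from -3.89 to 2.74, whereas banding minus sham and the library labelled Gata4 KO minus E12.5 run from -0.37 (Mrps35) to 0.75 (Mrps34) and from -1.05 (Mrps24) to 0.35 (Mrpl17), with medians of 0.17 and -0.23.

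Other lists of mitochondrial genes lay lower in the same library. Respiratory chain genes were lower in 66 of 78 cases (median -0.35), aminoacyl-tRNA enzymes in 18 of 20 (median -0.27) and assembly genes in 24 of 28 (median -0.16). Translation factors were lower in 12 of 14 (median -0.14) and genes for mitochondrial DNA in 7 of 8 (median -0.30). Cytosolic ribosomal protein genes were lower in 53 of 79 (median -0.19). Of all genes 53.6% were lower, with a median of -0.02. Outside the 76 genes the median was -0.25 under 600 bases and -0.15 between 600 and 1000 bases. The lengths of the genes in these lists were not taken into account. Summed levels of several cell markers differed too. Red cell markers summed to 64783 FPKM in the library labelled Gata4 KO and 21307 in E12.5, fibroblast markers to 341 and 156, endothelial markers to 367 and 266, leukocyte markers to 53.1 and 35.7, and liver markers to 2.05 and 2.13. Cardiomyocyte markers summed to 11357 FPKM against 15627, and cell cycle markers to 360 against 485. By the rule of size 5 of 8 fibroblast and 5 of 6 red cell markers were higher, against 1.26% of all genes. No marker of the other lists passed it. The part of these cells in the lower levels of the 76 genes was not tested.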

How the data were processed

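The 6 RNA-seq libraries were grouped by their titles. Per the labels' protocols, poly(A) RNA was purified from pooled RNA and copied from random hexamers, with no step that marks strand. Per the submitters' processing notes, the series used build mm9 with TopHat 1.4, BWA 0.5.9, MACS 1.4, CASAVA 1.8.2 and HTSeq 0.5.3. Which of them made the expression files is not given. The authors deposited 1 value per gene, which its steps show to be log2(FPKM + 1). Whole reads were recovered from the steps for 99.99% of 98043 values above 0, within 0.001 of a read, giving mapped reads of 21056784 (E12.5), 17805109 (labelled Gata4 KO), 12619710 and 12357585 (adult), 14015985 (banding) and 12086929 (sham). Such reads carry no molecular identifiers, so intervals (95%, exact conditional binomial) cover counting error only.

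Comparisons with adult used limma 3.58.1 (R 4.3.3) with a trend of variance on mean. Adjustment was by Benjamini-Hochberg, with a threshold of 0.05, over genes with at least 1 FPKM in 1 library compared. The spread came from the adult pair, with 1 residual degree of freedom. Comparisons of 1 library with 1 library have no test. The rule of size asks for a 2-fold ratio of FPKM and at least 5 FPKM in the higher library. Adding 1 to FPKM makes differences of low genes too small. The fit was tested on simulated data. Alternatives were 3 rescalings, a pseudocount of 0.1, no filter, no trend, each adult library left out, a 1.5-fold size rule and the counting interval. Chosen after seeing the data were voom on recovered reads and centring within length bands.

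The genes and lists were chosen with earlier results of these data known. All 142 entries of the 14 hand-made lists matched a symbol, some by a synonym in the RefSeq table of GRCm38, used for names and for which genes overlap: 19 of the 76 genes overlap a coding gene. Named genes are the 6 largest rises and falls in adult against E12.5, the 3 largest differences each way in the other comparisons (with at least 5 FPKM, or past the test), the 4 highest and 4 lowest mean levels, genes of a direction held by 5 or fewer, the S18 relatives, Mrps30 and Mrps36, and in other lists the 3 largest that passed. The full set of promoter factors and the genes with another ribosomal symbol were also described. Leukocyte markers had 3 of 7 and liver markers 0 of 4 tested between adult and E12.5. A red cell marker of the design is not reported here and was left out of its list.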

Additional observations from a re-analysis of the deposited data

How the results depend on the processing

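No paired analysis was possible because the groups compared share fewer than 2 replicate numbers. The planned edgeR test was not run, since the deposited values are not counts. Adult minus E12.5: the median over the 76 genes was -0.13 (upper-quartile), -0.15 (median-of-ratios) and -0.38 (equal sums), and -0.60 to -0.54 with 1 adult library left out. Its distance from all genes, -0.09, reversed to 0.26 within length bands, the cause of which was not tested, and was -0.45 with no filter, where genes with lower values enter the background. Sham minus adult: 8 genes rose and 33 fell (upper-quartile, median -0.27), 2 rose (median-of-ratios, median -0.53), 8 rose and 32 fell (equal sums, median -0.30), 0 rose and 37 fell (no filter, where the distance from all genes went from -0.52 to -0.86), and 0 rose without a trend or by voom (median -1.01); a pseudocount of 0.1 gave -1.0, and leaving out an adult library -0.98 to -0.94. Of the 32 genes named, 9 turned sign under upper-quartile, 4 under median-of-ratios and 8 under equal-sum scaling. Those that passed on either scale were Mrpl12 (0.22 and 0.22 under upper-quartile and equal-sum scaling), Mrpl20 (0.15 and 0.15), Mrps34 (0.052 and 0.044) and Mrpl23 (0.47 and 0.46), the last passing only after scaling. Rescaling changes each library by a constant factor, which shifts expressed genes nearly alike. Banding minus sham: the median was 0.13 (median-of-ratios) and 0.0404 (equal sums), 6 genes were higher at 1.5-fold, and 24 were higher and 2 lower by the counting interval. For the library labelled Gata4 KO, the interval counted 3 higher and 53 lower. Depth limits the low genes most in sham, where the fewest reads on a gene were 18. Of 38 genes that fell between E12.5 and adult, 29 passed in every test run, and of the 20 that rose, 17. Of 57 that fell in sham, 31 did.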
